A study of Rattus norvegicus with 18 samples.

Results

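*Zfp36*, *Socs3*, and *Dusp6* encode 3 proteins that act as brakes on inflammatory signaling. They were followed here as 3 of the 41078 transcripts counted in lumbar dorsal root ganglia (DRGs) of 18 rats. Members were chosen by name as inhibitors of cytokine mRNA stability, JAK-STAT signaling, and ERK signaling, and each was read from 1 Ensembl transcript, ENSRNOT00000090129 for *Zfp36*, ENSRNOT00000003940 for *Socs3*, and ENSRNOT00000037844 for *Dusp6*. The rats were Sprague Dawley animals in 3 groups of 6, each with 3 rats labelled male and 3 labelled female. Naive rats had no procedure. Sham rats were anesthetized, received an incision of the skin, and were sutured. TKA rats were anesthetized and underwent total knee arthroplasty, the replacement of the knee joint by a prosthesis. Operated rats were sampled 24 h later, and RNA came from the L3 and L4 DRGs of the left side, which hold the cell bodies of sensory neurons of the limb together with glia, immune cells, vessels, and connective tissue. Sham surgery therefore shared the anesthesia and the skin wound with TKA, and not the bone and joint surgery.

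ZFP36 (tristetraprolin) binds AU-rich elements of cytokine and early response mRNAs and recruits the machinery that removes their poly(A) tails. SOCS3 is induced through STAT3 and blocks signaling by receptors of the interleukin-6 family, so that it closes a feedback loop. DUSP6 is a cytoplasmic phosphatase that removes phosphate from ERK, and its own transcription is raised by ERK activity. All 3 are known as fast, inducible genes, and in DRGs STAT3 and ERK signaling is known to follow injury of nerve and tissue.

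Total counts per rat ranged from 20230562 to 29343899, and counting error was at most 5.51% of a rat's value for *Zfp36*, 10.7% for *Socs3*, and 5.55% for *Dusp6*. The DRGs of TKA rat 2 stood apart, with 5877 CPM (counts scaled to the size of the library) of the muscle actin *Acta1* against at most 648 CPM in each of the other 17 rats. It also had the lowest level of neurofilament transcripts, 12.47 as a mean log2 CPM. The library of TKA rat 4, labelled female, had 3472 counts summed over 3 transcripts that ran from 3097 to 5025 in the males and from 0 to 1 in the other females. It had 0 counts of a further transcript that ran from 350 to 627 in the other females and was at 0 in the males. The tests of sex that involve TKA rats are therefore given with and without this rat. Levels are CPM scaled by TMM over the 18 rats, and each change is the log2 fold-change of edgeR's quasi-likelihood fit to the 12 rats of a comparison. Calls needed a fold-change of 1.5 or more together with an adjusted p-value below 0.05. Because these are bulk samples, more cells of a type that expresses a gene and more RNA per cell cannot be told apart.

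The sequence upstream of the start site is shown for *Zfp36* and *Dusp6*, the 2 members with upstream bases outside the span of the reference gene (all 250 for *Zfp36* and 148 of 250 for *Dusp6*), because all 3 are inducible genes whose levels were higher after TKA. The sequences are from RefSeq (build GRCr8), read 5′ to 3′ on the gene's strand. The *Zfp36* bases are chr1:92799109-92799358 on the minus strand, with a GC content of 65.2%, and capitals mark the only match to a searched motif, a CArG box, which is the motif bound by serum response factor. The *Dusp6* bases are chr7:35979354-35979501 on the plus strand, with a GC content of 51.4% and no match.
Zfp36: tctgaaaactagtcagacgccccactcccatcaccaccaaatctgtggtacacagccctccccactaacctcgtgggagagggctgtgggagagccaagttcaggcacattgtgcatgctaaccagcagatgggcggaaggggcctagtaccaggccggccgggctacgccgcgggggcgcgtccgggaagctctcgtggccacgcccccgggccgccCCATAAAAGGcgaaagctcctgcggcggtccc
Dusp6: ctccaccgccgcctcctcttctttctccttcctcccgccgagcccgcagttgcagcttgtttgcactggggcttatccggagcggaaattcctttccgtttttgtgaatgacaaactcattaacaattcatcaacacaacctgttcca

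The CArG box of *Zfp36* lay 32 to 23 bases before the start. Both strands of the 250 bases before each start were searched for 7 motifs, and a CArG box was found in 1.5% of 33469 rat promoters. The other 6 were a STAT dimer motif (TTCNNNGAA, 7.67% of promoters), a CRE (TGACGTCA, 1.59%), an AP-1 motif (TGANTCA, 6.34%), an ETS motif (CCGGAAG, 7.27%), a glucocorticoid response element (0.373%), and an NF-kB motif (6.33%). The only other match in the 3 windows was an NF-kB motif in the *Socs3* window, 161 to 152 bases before the start used there. All 250 bases of that window lie inside the span of the reference gene. That match is therefore not shown and cannot be placed upstream of the gene. No 2 matches overlapped. A match describes these letters only, and a window without one says nothing of the factor.

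*Zfp36* was the member with the clearest separation of the groups. Its level ranged from 16.0 to 22.2 CPM in naive rats, with a median of 19.9 CPM. It ranged from 13.7 to 34.0 CPM in sham rats, with a median of 20.03 CPM. In TKA rats it ranged from 45.6 to 71.0 CPM, with a median of 51.7 CPM. All 6 TKA rats lay above all 12 other rats, and naive and sham rats overlapped. The means were 19.4 ± 2.67 CPM in naive rats, 21.8 ± 7.78 CPM in sham rats, and 53.6 ± 9.02 CPM in TKA rats (SD, n = 6 each). Against naive rats *Zfp36* rose 2.79-fold after TKA, a log2 fold-change of 1.48 (SE 0.13, 95% interval 1.20 to 1.76), and passed both thresholds (adjusted p = 0.000392 by edgeR's quasi-likelihood test). It had the lowest p-value of the 15170 transcripts tested, of which 13 (0.0857%) were called, all higher in TKA rats. Since *Zfp36* was chosen with a result of these same TKA rats known, its rank and call are not independent evidence.

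Against sham rats the log2 fold-change of *Zfp36* was 1.31 (SE 0.21, 95% interval 0.85 to 1.76), or 2.47-fold, with the second lowest p-value of 15320 transcripts but an adjusted p = 0.196 by edgeR's quasi-likelihood test. The exact permutation test of the *Zfp36* values alone, 6 rats against 6 and two-sided, gave p = 0.00216, the smallest that this design allows. In that comparison edgeR's quasi-likelihood test called 0 transcripts (0% in either direction), while 910 (5.94%) were higher and 445 (2.9%) lower at an unadjusted p-value under 0.05. All 6 TKA rats lay above all 6 sham rats for 68 transcripts (0.444%). DESeq2 run without a prior called 68 transcripts between TKA and sham rats, DESeq2 with a prior 58, edgeR with all 3 groups in one fit 11, and limma voom with sample weights 1. *Zfp36* was called by these 4 fits, with adjusted p-values of 4.92e-05, 3.96e-05, 0.0202, and 0.0357 in that order. The study, which used DESeq2 with the same 2 thresholds, listed *Zfp36*, *Socs3*, and *Dusp6* as differentially expressed between the TKA and sham rats compared here. The direction, rank, and calls of these 3 are therefore not independent evidence. The same limit holds against naive rats, because the TKA rats are shared. Between sham and naive rats, *Zfp36* had a log2 fold-change of 0.18 (SE 0.20, 95% interval -0.24 to 0.60, adjusted p = 0.998 by edgeR's quasi-likelihood test), within the spread between rats.

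**Figure D1:**
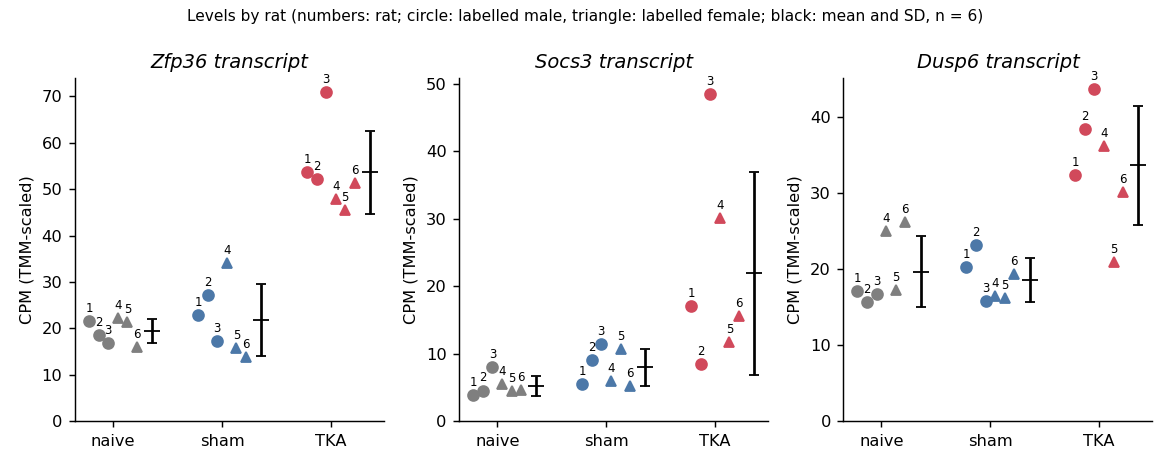
Level of each transcript in CPM (TMM-scaled, linear axes from 0) in naive, sham, and TKA rats, with the rat number at each point, circles for rats labelled male, triangles for rats labelled female, and the mean and SD in black (n = 6). *Zfp36* in TKA rats (45.6 to 71.0 CPM) lay above every other rat, whereas the highest and lowest TKA rats for *Socs3* were at 48.6 and 8.40 CPM.

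*Socs3* had the widest spread of the 3 transcripts among TKA rats and, by edgeR, the largest fold-change in both comparisons of TKA rats. Against sham rats the order with *Zfp36* turned in some alternatives, with log2 fold-changes of 1.03 for *Socs3* and 1.14 for *Zfp36* by DESeq2 with a prior, and of 1.06 and 1.21 without TKA rat 3. It ranged from 3.79 to 8.01 CPM in naive rats (median 4.57 CPM) and from 5.23 to 11.4 CPM in sham rats (median 7.48 CPM). In TKA rats it ranged from 8.40 to 48.6 CPM (median 16.3 CPM). Every TKA rat lay above every naive rat, and TKA rat 2, at 8.40 CPM, lay below 3 of the sham rats. TKA rats 3 and 4, at 48.6 and 30.1 CPM, were the highest of all 18 rats. The mean was 5.14 ± 1.5 CPM in naive rats, 7.98 ± 2.75 CPM in sham rats, and 21.9 ± 15.0 CPM in TKA rats (SD, n = 6 each), so that the coefficient of variation was 68.6% in TKA rats against 29.2% and 34.5% in naive and sham rats.

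The change of *Socs3* was 4.28-fold between TKA and naive rats, a log2 fold-change of 2.10 (SE 0.38, 95% interval 1.27 to 2.93). It missed the threshold after adjustment (adjusted p = 0.0671 by edgeR's quasi-likelihood test) although it ranked 21st of 15170 transcripts by p-value, and the exact permutation p-value of *Socs3* alone was 0.00216. All 6 TKA rats lay above all 6 naive rats for 176 transcripts (1.16%), and 11.7% were higher and 5.48% lower at an unadjusted p-value under 0.05. The call depended on single libraries. Without TKA rat 2 the log2 fold-change was 2.26 (adjusted p = 0.00499 by edgeR's quasi-likelihood test), and without TKA rat 5 it was 2.22 (adjusted p = 0.0391), both past the threshold. Adjusted p-values over all alternatives for *Socs3* in this comparison ran from 1.34e-05 to 0.197.

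Against sham rats *Socs3* had a log2 fold-change of 1.46 (SE 0.39, 95% interval 0.61 to 2.30), or 2.75-fold, with an adjusted p = 0.446 by edgeR's quasi-likelihood test. For *Socs3* in TKA and sham rats the exact permutation test gave p = 0.0130, and 5 of 6 TKA rats lay above every sham rat. DESeq2 called it, without a prior (adjusted p = 0.0385) and with one (adjusted p = 0.0362), and edgeR with all 3 groups in one fit (adjusted p = 0.146) and limma voom (adjusted p = 0.186) did not. Leaving out TKA rat 3 gave the lowest log2 fold-change, 1.06, and leaving out TKA rat 2 the highest, 1.61. *Socs3* was also the member with the largest difference between sham and naive rats, a log2 fold-change of 0.64 (SE 0.25, 95% interval 0.10 to 1.18), or 1.56-fold. The unadjusted p-value was 0.0226, and the adjusted p-value was 0.998 by edgeR's quasi-likelihood test, with a two-sided exact permutation p-value of 0.0455 for this transcript alone. At an unadjusted p-value under 0.05, 2.49% of the 15153 transcripts were higher and 1.64% lower in sham than in naive rats, and for 0.0462% all 6 sham rats lay above all 6 naive rats, which held for 0 of the 3 members. In this comparison the counts of calls were low by every tool, 0 for edgeR's quasi-likelihood test, 5 for DESeq2 without a prior, 0 for DESeq2 with a prior, and 0 for limma voom.

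*Dusp6* had the smallest fold-change of the 3. Its level ranged from 15.6 to 26.2 CPM in naive rats (median 17.2 CPM), from 15.7 to 23.1 CPM in sham rats (median 17.9 CPM), and from 20.9 to 43.7 CPM in TKA rats (median 34.3 CPM). Of the TKA rats, 5 lay above all 12 naive and sham rats, and TKA rat 5, at 20.9 CPM, lay among them. The mean was 19.7 ± 4.68 CPM in naive rats, 18.5 ± 2.91 CPM in sham rats, and 33.6 ± 7.82 CPM in TKA rats (SD, n = 6 each).

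The log2 fold-change of *Dusp6* was 0.87 (SE 0.17, 95% interval 0.50 to 1.24) between TKA and sham rats, or 1.83-fold. The adjusted p-value was 0.234 by edgeR's quasi-likelihood test, and the exact permutation p-value for *Dusp6* was 0.00433. Between TKA and naive rats the log2 fold-change was 0.79 (SE 0.19, 95% interval 0.38 to 1.20), or 1.73-fold, with an adjusted p = 0.118 by edgeR's quasi-likelihood test and an exact permutation p-value of 0.00866. DESeq2 without a prior called *Dusp6* against sham rats (adjusted p = 0.00431) and against naive rats (adjusted p = 0.0119). Between sham and naive rats *Dusp6* differed by -0.08 on the log2 scale (SE 0.16, 95% interval -0.41 to 0.25, adjusted p = 0.998 by edgeR's quasi-likelihood test). A fold-change of 1.5 or more between sham and naive rats thus lay outside the interval of *Dusp6*, in either direction, whereas the intervals of *Zfp36* and *Socs3* reached 0.60 and 1.18, beyond the log2 value of that fold, 0.58.

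**Figure D2:**
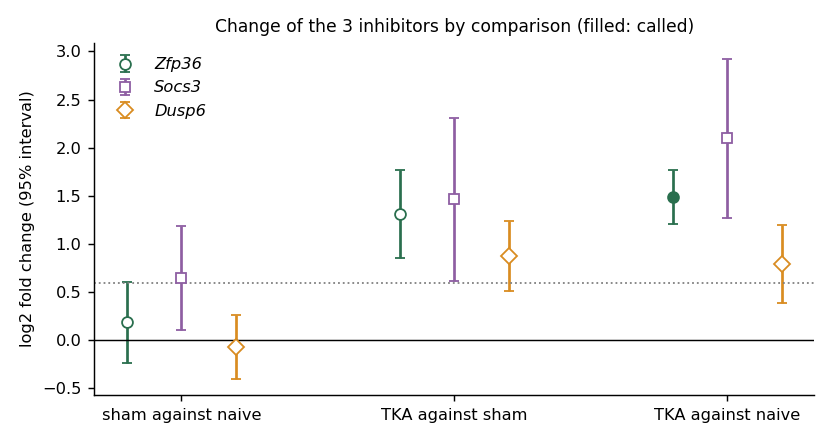
Log2 fold-change of each transcript with its 95% interval in the 3 comparisons (n = 6 rats per group), where a filled point marks a call and the dotted line a 1.5-fold increase. The 1 filled point is *Zfp36* between TKA and naive rats, at 1.48 with an interval of 1.20 to 1.76, and the 2 widest intervals are those of *Socs3* after TKA, 0.61 to 2.30 against sham rats and 1.27 to 2.93 against naive rats. The comparisons of TKA rats share those rats.

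Each TKA rat was set against the highest sham rat for each transcript. In 4 of 6 TKA rats (1, 3, 4, and 6) all 3 transcripts lay above every sham rat, and in the other 2 rats 2 of the 3 did, with *Socs3* missing in rat 2 and *Dusp6* in rat 5. Since 6, 5, and 5 TKA rats lay above every sham rat for *Zfp36*, *Socs3*, and *Dusp6*, between 4 and 5 rats had to hold all 3, so the 4 rats follow from the single transcripts and show no added coincidence. Against naive rats 5 of 6 TKA rats had all 3 transcripts above the highest naive rat, the only number that the counts of the single transcripts allow. Among sham rats set against naive rats, 0 had all 3 transcripts above, 1 had 2, 4 had 1, and 1 had none. TKA rat 3 was the highest TKA rat for all 3 transcripts, at 71.0 CPM of *Zfp36*, 48.6 CPM of *Socs3*, and 43.7 CPM of *Dusp6*.

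Within a group, the transcripts could not be shown to vary together. In TKA rats the Pearson r of log2 CPM was 0.65 for *Zfp36* and *Socs3* (exact permutation p = 0.157, adjusted p = 0.706 over 9 relations, Spearman rho 0.43 with p = 0.419, n = 6). For *Zfp36* and *Dusp6* it was 0.72 (exact permutation p = 0.149, adjusted p = 0.706, rho 0.71 with p = 0.136), and for *Socs3* and *Dusp6* 0.51 (exact permutation p = 0.292, adjusted p = 0.875, rho 0.43 with p = 0.419). Without the 2 rats farthest from the median of the first transcript, r was -0.66, -0.28, and 0.86 in that order, with 4 rats left. Single rats also moved these values, since without TKA rat 3 r was -0.16, 0.65, and 0.18, and without TKA rat 2 it was 0.77, 0.77, and 0.91. None of the 3 relations can therefore be told from the influence of 1 or 2 rats. Of the 6 relations in naive and sham rats, Pearson r ran from -0.43 to 0.22, and the lowest exact permutation p-value was 0.433.

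**Figure D3:**
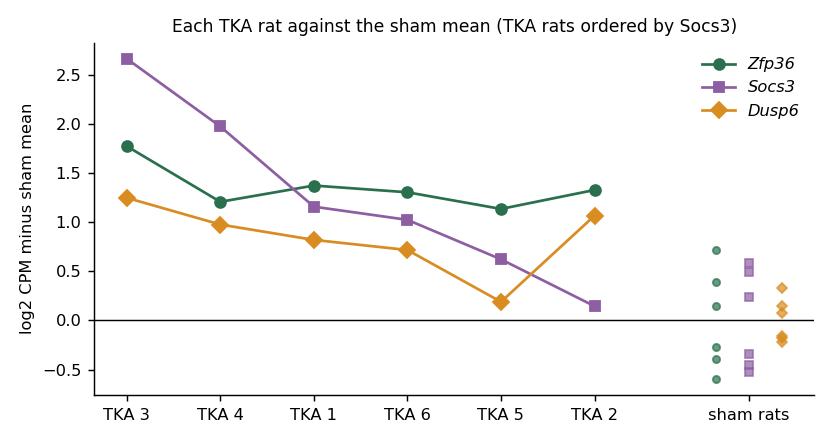
Log2 CPM of each transcript in the 6 TKA rats minus the sham mean, with TKA rats ordered by *Socs3*, and the 6 sham rats as small points on the right. *Zfp36* was at 1.77 in TKA rat 3 and nearly level, at 1.14 to 1.37, in the other TKA rats. *Socs3* fell from the rat with 48.6 CPM to the rat with 8.40 CPM, and *Dusp6* was lowest in TKA rat 5.

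The balance between the 3 transcripts was followed as ratios within each rat. The log2 ratio of *Zfp36* to *Dusp6* was 0.0011 ± 0.40 in naive rats, 0.18 ± 0.50 in sham rats, and 0.69 ± 0.26 in TKA rats (SD, n = 6 each). The log2 ratio of *Socs3* to *Dusp6* was -1.93 ± 0.49 in naive rats, -1.26 ± 0.61 in sham rats, and -0.83 ± 0.79 in TKA rats. For *Zfp36* to *Socs3* it was 1.93 ± 0.49, 1.44 ± 0.77, and 1.53 ± 0.79. These ratios of CPM depend on transcript length, so only their change between groups can be read, and that change was not tested.

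Sex as labelled was tested as an interaction with surgery. Of the 9 tests of the members (3 transcripts in 3 comparisons), 2 had an unadjusted p-value under 0.05, both for *Dusp6*, against 2.65% (TKA and sham), 4.69% (TKA and naive), and 4.4% (sham and naive) of all transcripts tested, and 0 passed after adjustment by edgeR's quasi-likelihood test. For *Dusp6* between TKA and naive rats the unadjusted p-value was 0.0147 (adjusted p = 0.995 by edgeR's quasi-likelihood test), with a mean difference in log2 CPM of 1.20 in rats labelled male and 0.34 in rats labelled female, and an interaction of -0.89 (SE 0.31). Without TKA rat 4 the interaction was -1.06. The *Dusp6* interaction between sham and naive rats was -0.65 (SE 0.27, unadjusted p = 0.0299, adjusted p = 0.985), and that between TKA and sham rats was -0.22 (SE 0.31, unadjusted p = 0.493), which became -0.40 without TKA rat 4 and -0.034 without TKA rat 5. The comparisons against naive rats share the naive rats, of which females 4 and 6 had the highest *Dusp6* levels, 25.1 and 26.2 CPM. For *Zfp36* and *Socs3* the 6 unadjusted p-values ran from 0.135 to 0.895. Without TKA rat 4 the interaction between TKA and sham rats went from -0.22 to -0.21 for *Zfp36* and from -0.13 to -0.61 for *Socs3*, and that between TKA and naive rats from -0.39 to -0.37 and from -0.23 to -0.70.

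Summed markers of most other cell types reached higher levels in TKA rats, as the 3 transcripts did, and their part in the results above was not tested. Names of the macrophage, Schwann cell, fibroblast, satellite glia, and endothelial markers all came from tables of the study that list transcripts with the lowest p-values first. Their sums are thus weighted towards markers that changed and are not an even sample of each cell type. The summed level of 7 named myelinating Schwann cell markers (of 10 listed) was 7231 to 17599 CPM in sham rats and 10316 to 89312 CPM in TKA rats. Sums of 8 macrophage markers (of 13) were 97.4 to 405 CPM in sham rats and 232 to 813 CPM in TKA rats. Fibroblast markers (4 of 5) summed to 217 to 464 CPM in sham rats and 422 to 1127 CPM in TKA rats, and satellite glia markers (2 of 5) to 271 to 542 CPM and 372 to 1686 CPM. The satellite glia sum was mostly *Glul*, with a log2 fold-change of 0.95 (SE 0.39) between TKA and sham rats, and the other named marker, *Fabp7*, was at -0.34 (SE 0.16). Muscle markers (4 of 10) ran from 20.2 to 606 CPM in sham rats and from 33.2 to 8369 CPM in TKA rats. The sum of sensory neuron markers (5 of 12) was the one that ran lower, at 34518 to 44334 CPM in sham rats and 17152 to 39793 CPM in TKA rats, and it marks the labelled tissue at high levels in all groups. It was mostly the neurofilaments *Nefl*, *Nefm*, and *Nefh*, at log2 fold-changes of -0.44 (SE 0.20), -0.48 (SE 0.19), and -0.47 (SE 0.19) between TKA and sham rats. *Isl1*, with a sham mean of 93.7 CPM, was at -0.66 (SE 0.38). *Calca*, with a sham mean of 517 CPM, was at 0.07 (SE 0.38), so the lower sum describes mainly neurofilaments. Endothelial markers (2 of 6) ran from 31.5 to 51.2 CPM in sham rats and from 42.3 to 106 CPM in TKA rats, lymphocyte markers (2 of 6) from 0.590 to 13.1 and from 1.20 to 18.3 CPM, and the 1 named red blood cell marker (of 5) from 13.1 to 757 and from 41.6 to 971 CPM. None of the 7 neutrophil markers could be named, and no named marker was at 0 in all rats. TKA rat 2 was the highest TKA rat for each of these sums except that of neurons, where it was the lowest. With TKA rats 2 and 6 left out together, a choice made once the data had been seen, the log2 fold-changes against sham rats were 1.31 for *Zfp36*, 1.74 for *Socs3*, and 0.84 for *Dusp6*.

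The neurofilament level, a mean of log2 CPM over *Nefh*, *Nefm*, and *Nefl*, was set against each member within a group. In TKA rats *Socs3* had a Pearson r of 0.85 with it (exact permutation p = 0.0333, adjusted p = 0.150 over 9 relations, rho 0.83 with p = 0.0583, n = 6), and r was 0.92 without the 2 rats farthest from the median, with 4 rats left. In naive and sham rats r for *Socs3* was below 0, at -0.41 (exact permutation p = 0.433) and -0.39 (exact permutation p = 0.415). For *Zfp36* in TKA rats r was 0.33 (exact permutation p = 0.551) and for *Dusp6* 0.09 (exact permutation p = 0.853). The 1 relation that passed the adjustment was that of *Zfp36* in naive rats, with r of 0.95 (exact permutation p = 0.00417, adjusted p = 0.0375, rho 0.94 with adjusted p = 0.150, n = 6), and r was 0.80 without the 2 farthest rats. These relations were chosen after the data were seen. With the neurofilament level as a covariate, the log2 fold-change of *Socs3* between TKA and naive rats was 2.76 (adjusted p = 0.00375 by edgeR's quasi-likelihood test), against 2.10 without it, and *Zfp36* changed from 1.48 to 1.64. *Socs3* against sham rats was 2.003 with the covariate (adjusted p = 0.207) and *Dusp6* was 0.95 (adjusted p = 0.332). These fits use a common slope for both groups, although r for *Socs3* differed in sign between TKA rats and the others. The neurofilament level also ran lower in TKA rats (12.47 to 13.67) than in naive rats (13.51 to 13.92). Group and neurofilament level therefore cannot be fully separated in these fits.

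**Figure D4:**
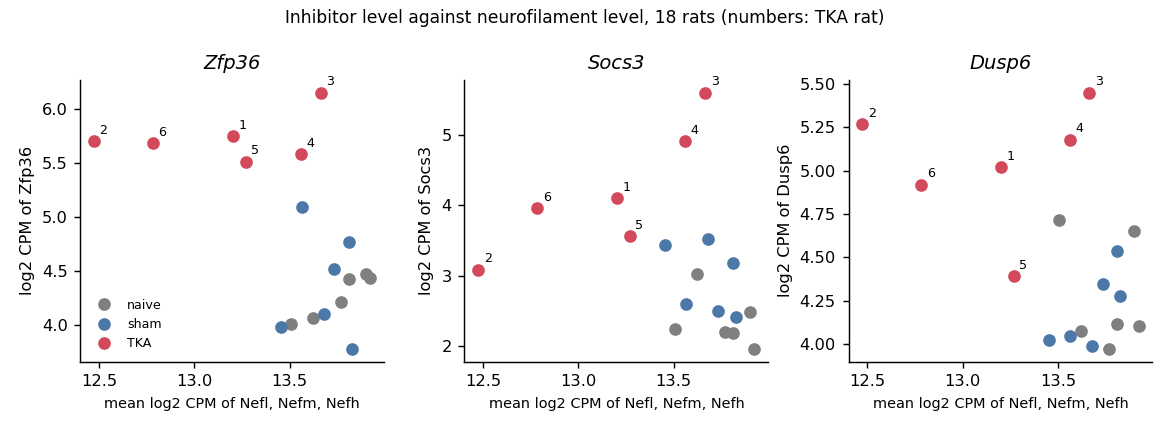
Log2 CPM of each transcript against the mean log2 CPM of the 3 neurofilament transcripts in 18 rats, with TKA rats numbered. TKA rats reached neurofilament levels as low as 12.47, and among them *Socs3* was lowest in rat 2, at the left end, and highest in rat 3, at the right end.

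The pathways around the 3 transcripts could be followed in part, because the count table holds no gene names. Names were taken from tables of the study that list transcripts with the lowest p-values first, and from a further part of one of them that is not sorted in that way. Of 111 genes in the pathway lists, 52 were named. The 41 named from the sorted parts had a median log2 fold-change of 0.87 between TKA and sham rats. Of them, 30 were higher at an unadjusted p-value under 0.05, against 5.94% of all transcripts. The 6 tested genes named otherwise, *Cnot3*, *Nfkbib*, *Nfkbid*, *Tnfaip3*, *Mapk3*, and *Spred3*, all lay between -0.26 and -0.04, and 0 of them had an unadjusted p-value under 0.05 by edgeR's quasi-likelihood test. The counts of each list below are thus weighted towards genes that changed, and they cannot be read as shares of a pathway. The lists also share genes. *Myc* and *Fos* are listed as AU-rich, STAT3, and ERK targets, *Ccl2* as an AU-rich and a STAT3 target, and *Bcl3* under NF-kB and STAT3. Counts of different lists are therefore not separate evidence. The median of all transcripts was 0.01 between TKA and sham rats and 0.02 between TKA and naive rats.

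Around ZFP36, 4 of 13 mRNA decay factors were named and tested. Apart from *Zfp36*, *Elavl1*, whose product stabilizes AU-rich mRNAs, had a log2 fold-change of 0.46 between TKA and sham rats (SE 0.19, unadjusted p = 0.0289). The deadenylase subunits *Cnot11* and *Cnot3* were at -0.31 (SE 0.13, unadjusted p = 0.0390) and -0.08 (SE 0.11). None of these other 3 was called in any comparison by edgeR's quasi-likelihood test. Of 17 mRNAs known as AU-rich targets of this kind of decay, 6 were tested, all 6 had a value above 0 between TKA and sham rats, 4 had an unadjusted p-value under 0.05, and 0 were called by edgeR's quasi-likelihood test. The median of the 6 was 1.15. At an unadjusted p-value under 0.05, 5.94% of all transcripts were higher in that comparison. The 4 targets at that level were *Il23a*, a cytokine subunit, at 1.25 (SE 0.52), *Myc* at 1.19 (SE 0.30), the chemokine *Ccl7* at 1.11 (SE 0.43), and *Fos* at 0.94 (SE 0.40). The prostaglandin synthase *Ptgs2* had the largest value of the 6, 2.42, with a standard error of 1.19, and TKA rats ranged from 0 to 9.31 CPM. *Ccl2*, a monocyte chemokine, had a log2 fold-change of 0.997 (SE 0.19) between sham and naive rats and of 0.67 (SE 0.59) between TKA and sham rats, and TKA rats ranged from 0.509 to 57.3 CPM.

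Around SOCS3, 4 of 8 JAK-STAT inhibitors were tested. The phosphatases *Ptpn2* and *Ptpn1* were at 0.50 (SE 0.18) and 0.31 (SE 0.13) between TKA and sham rats and at 0.75 (SE 0.17) and 0.50 (SE 0.12) between TKA and naive rats. *Socs2*, a relative of *Socs3* that acts on growth hormone signaling, was below 0, at -0.40 (SE 0.22) and -0.22 (SE 0.22). On the side of the signal, the 1 ligand tested of 7 was *Cntf*, the ciliary neurotrophic factor of Schwann cells. It was at 0.77 (SE 0.38) between TKA and sham rats and at 1.11 (SE 0.34) between TKA and naive rats. The receptor gene *Il6r* was at 1.15 (SE 0.33) between TKA and sham rats and *Il11ra1* at 0.24 (SE 0.11), which are 2 of 7 listed. The kinase *Jak2*, the 1 tested of 4 kinases and STATs listed, was at 0.52 (SE 0.13). None of these was called, with adjusted p-values of 0.411 to 0.604 for those between TKA and sham rats and 0.115 to 0.635 for those between TKA and naive rats.

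Genes known as STAT3 targets were the largest group, with 12 of 17 tested. Between TKA and sham rats 11 of the 12 had a value above 0, with a median of 0.96. Of these, 8 had an unadjusted p-value under 0.05, in a comparison in which 5.94% of all transcripts were higher at that level. Between sham and naive rats 11 of the 12 were also above 0, with a median of 0.33. There 4 had an unadjusted p-value under 0.05, against 2.49% of all transcripts higher. Between TKA and naive rats the median was 1.43, and *Cebpd*, a transcription factor of the acute phase response, was the 1 called, at 1.47 (SE 0.16, adjusted p = 0.00185 by edgeR's quasi-likelihood test), from 26.1 ± 6.72 CPM in naive rats to 71.8 ± 9.84 CPM in TKA rats (SD, n = 6 each). The glial filament *Gfap* had the largest value, 3.55 (SE 0.71, adjusted p = 0.0942) between TKA and naive rats, with 39.4 to 992 CPM in TKA rats and 14.1 to 30.5 CPM in naive rats. *Timp1*, an inhibitor of matrix proteases, was at 0.62 (SE 0.14) between TKA and sham rats, the secreted glycoprotein *Lrg1* at 1.53 (SE 0.39), and *A2m*, a plasma protease inhibitor, at 1.88 (SE 0.73). *Pim3*, a kinase, was the 1 below 0, at -0.21 (SE 0.10).

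Around DUSP6, 7 of 12 ERK pathway inhibitors were tested. Between TKA and sham rats 6 of the 7 had a value above 0, with a median of 0.61. An unadjusted p-value under 0.05 was found for 5, in a comparison in which 5.94% of all transcripts were higher at that level. Beside *Dusp6* at 0.87, these were *Spry1* at 1.03 (SE 0.33), the receptor inhibitor *Errfi1* at 0.82 (SE 0.25), the phosphatase *Dusp1* at 0.61 (SE 0.16), and *Spry2* at 0.40 (SE 0.11). *Spry4* was at 0.35 (SE 0.16, unadjusted p = 0.0505) and *Spred3*, at -0.11 (SE 0.35), was the 1 below 0. Between sham and naive rats the 7 had a median of 0.05, and 0 had an unadjusted p-value under 0.05 by edgeR's quasi-likelihood test, also *Dusp1* at 0.11 and *Spry1* at 0.05. Of the kinases and RAS proteins, 2 of 10 were tested, *Nras* at 0.31 (SE 0.13) and the ERK1 gene *Mapk3* at -0.04 (SE 0.12) between TKA and sham rats.

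ERK target genes, which include early response transcription factors, had 7 of 16 tested, all above 0 between TKA and sham rats with a median of 0.94. *Egr2*, known also as a regulator of myelin genes, was at 1.67 (SE 0.40), *Fosl2* at 1.14 (SE 0.26), and *Egr1* at 0.90 (SE 0.35). Between TKA and naive rats all 7 had an unadjusted p-value under 0.05, with a median of 1.41, in a comparison in which 11.7% of all transcripts were higher at that level. Between sham and naive rats 3 of the 7 had an unadjusted p-value under 0.05, *Jun* at 0.48 (SE 0.11), *Fos* at 0.50 (SE 0.21), and *Ier2* at 0.38 (SE 0.14), and *Dusp6* itself was at -0.08. In that comparison 2.49% of all transcripts were higher at that level. Of all the pathway genes, only *Zfp36* and *Cebpd* were called by edgeR's quasi-likelihood test, both between TKA and naive rats.

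**Figure D5:**
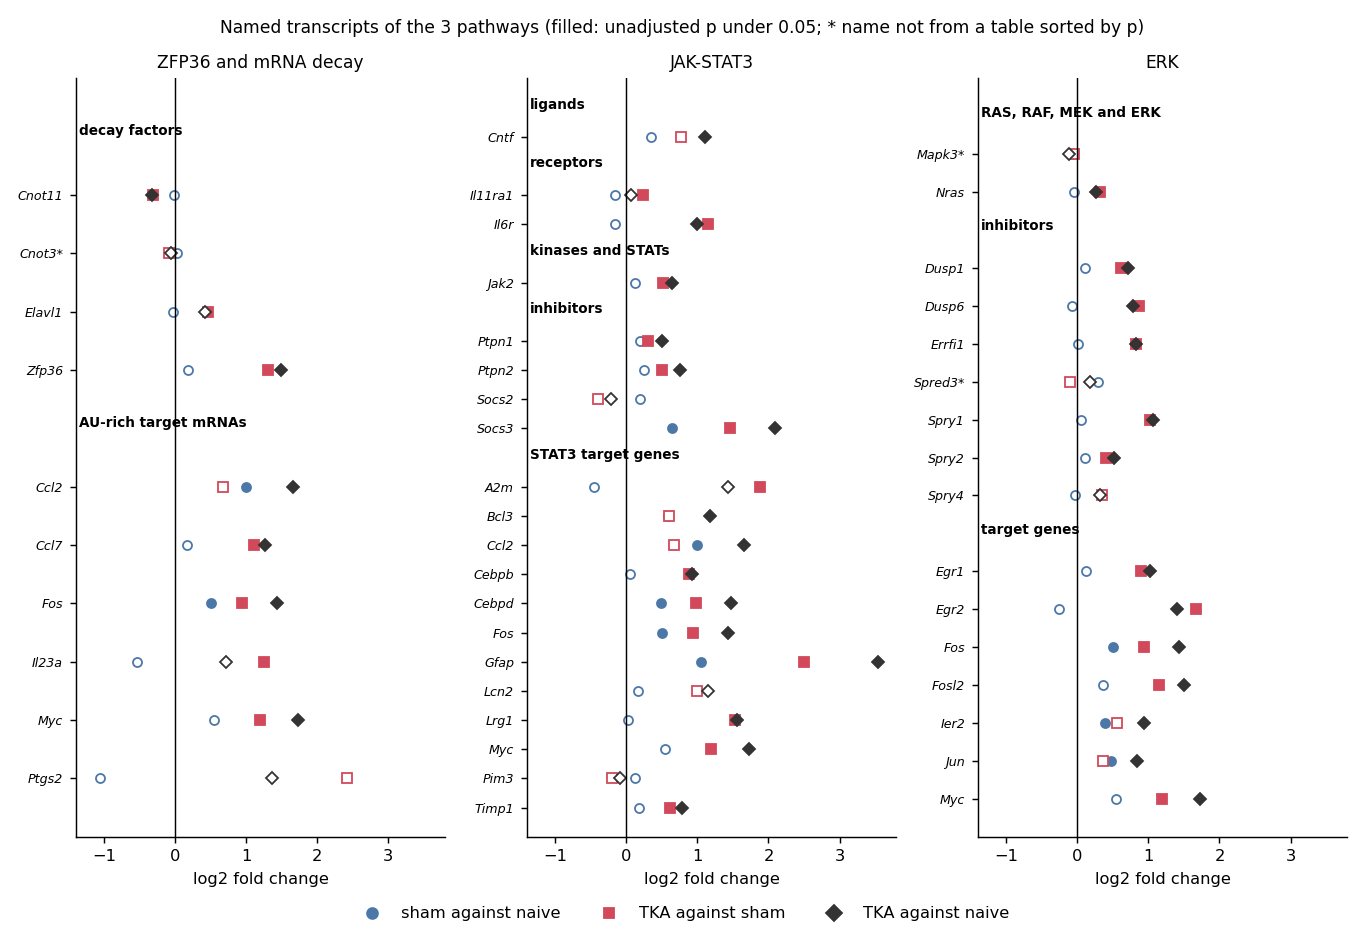
Log2 fold-change of the named and tested genes of the 3 pathways in the comparisons of sham with naive, TKA with sham, and TKA with naive rats (n = 6 rats per group), with filled points at an unadjusted p-value under 0.05 and an asterisk for names that did not come from a table sorted by p-value. Most TKA points lie to the right of 0, the sham points lie nearer to it, and the asterisked genes *Cnot3*, *Mapk3*, and *Spred3* lie near 0.

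The transcripts whose levels were most like each member over the 18 rats were found among 16043 transcripts, of which 3239 had names, by Pearson r of log2 CPM. These values are a description, and the points share groups, depth, and the libraries that stood apart. For *Zfp36* the most alike named transcripts were *Cebpd* (r = 0.90), *Apold1* (0.89), *Twf1* (0.86), *Clec2g* (0.86), and *Heca* (0.85). For *Dusp6* they were *Ifitm2* (0.86), *Apold1* (0.86), *Enc1* (0.85), *Btg2* (0.84), and *Ing2* (0.84), so that *Apold1*, an early response gene of endothelium, was on both lists. It was at 6.63 CPM in naive, 7.28 CPM in sham, and 20.4 CPM in TKA rats on average.

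*Socs3* had other neighbors, the TNF receptor *Tnfrsf1a* (r = 0.93), the neuropeptide precursor *Vgf* (0.92), *Pvr* (0.92), the stress gene *Gadd45a* (0.92), and *Flrt3* (0.91). With the group means removed, r for these 5 was 0.79 to 0.88, whereas for the 5 neighbors of *Zfp36* it was 0.32 to 0.77 and for those of *Dusp6* 0.52 to 0.78. On average *Vgf* was at 30.1 CPM in naive, 52.1 CPM in sham, and 104 CPM in TKA rats, and *Gadd45a* at 36.6, 47.9, and 89.4 CPM. The 3 inhibitors were not each other's nearest neighbors. In the order for *Zfp36*, *Dusp6* was 27th and *Socs3* 90th of 16043, and in that for *Dusp6*, *Zfp36* was 19th and *Socs3* 129th. In the order for *Socs3*, *Zfp36* was 73rd and *Dusp6* 109th.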

How the data were processed

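RNA of DRGs from 18 rats (6 naive, 6 sham, and 6 TKA) was sequenced as paired-end reads of 150 bp. The deposited counts are raw whole numbers of reads, not normalized, that the authors assigned to Ensembl transcripts. The submitters' processing notes name HISAT2, featureCounts, DESeq2, and the build rn6. Versions, strand setting, and the treatment of overlapping features are not given in the sources used here, so reads shared by isoforms or overlapping genes leave the values of single transcripts uncertain. Every column carried the name of 1 rat, and the labels do not say whether each library came from one extraction, so p-values measure the spread between these samples.

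The members and gene lists were chosen with earlier results of these data known. Each pair of groups was fitted with edgeR 4.0.16 in R 4.3.3 (filterByExpr, TMM, quasi-likelihood F test, Benjamini-Hochberg over all transcripts tested). A standard error is the size of the log2 fold-change over the root of its F statistic. Log2 CPM used a prior count of 2. Single values were compared by two-sided exact permutation tests of mean log2 CPM. Named are the 3 members, pathway genes with an unadjusted p-value under 0.05 or at the extremes of their list, the 5 named transcripts most like each member, and cell type markers. Of several named transcripts with 1 symbol, the most abundant was taken.

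Names covered 3837 transcripts, 2056 of them from tables sorted by p-value, so list counts are weighted towards low p-values and no set test was run. A few listed genes are not reported here and were left out of every list count. Fold-changes in the study's tables were not used. Its adjusted p-values served only to tell which parts of those tables were sorted by p-value. Promoter sequences were matched by symbol, and 3 of 3 members matched. Other settings tried were DESeq2 1.42.0, without and with a prior, limma 3.58.1 voom with sample weights, RLE scaling, filters on low counts, sex, neurofilament level, or rat number as a term, all groups in one fit, and each rat left out. Chi-square per degree of freedom between rats had a lowest value of 13.3 and a median of 37.7, so all 18 libraries differed by more than sampling noise. On simulated counts for TKA against sham rats with 15320 transcripts, of which 100 were changed by 1 and 100 by 2 on the log2 scale, edgeR recovered 53 and 89. It also gave 11 unchanged transcripts an adjusted p-value below 0.05. Only transcripts above a minimum mean count were changed, and counts were drawn independently, without a library that stood apart as TKA rat 2 did. These recovery counts therefore need not hold for the real data.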

Additional observations from a re-analysis of the deposited data

Results flagged for a closer look

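The level of *Zfp36* in TKA rat 3 stood apart from the other 5 TKA rats. Its log2 CPM was 6.152 and the next highest was 5.751, a gap of 0.627 of the range of the group, just above the critical value of Dixon's test at the 95% level. In all, 18 groups of 6 values (3 transcripts and 3 pairs of transcripts in 3 groups) were examined, of which chance gives about 0.9. TKA rat 3 was also the highest of the TKA rats for *Socs3* and *Dusp6*. Without it the log2 fold-change of *Zfp36* between TKA and naive rats was 1.39 and stayed past the threshold.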

How the results depend on the processing

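All alternatives kept the direction of *Zfp36* and *Socs3* in the 3 comparisons and of *Dusp6* in both comparisons of TKA rats. Between TKA and sham rats the count of 0 calls became 68 with DESeq2 without a prior, 58 with a prior, 1 with limma voom, and 11 with all 3 groups in one fit. These called *Zfp36* (log2 fold-changes 1.30, 1.14, 1.36, and 1.31), and both DESeq2 fits called *Socs3* (1.45 and 1.03) and *Dusp6* (0.87 and 0.79). Between TKA and naive rats the count of 13 became 450, 355, 123, and 116 in the same fits, which also called *Socs3* (2.09, 1.62, 2.12, and 2.10) and *Dusp6* (0.78, 0.72, 0.81, and 0.79), 39 with the neurofilament level (*Socs3* 2.76), and 105 without TKA rats 2 and 6 (*Socs3* 2.39). Between sham and naive rats DESeq2 without a prior called 5, and limma voom put *Dusp6* at 0.074. The cause was not tested.

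Leaving out 1 rat at a time gave 0 calls between TKA and sham rats, with 1.20 to 1.47 for *Zfp36*, 1.06 to 1.61 for *Socs3*, and 0.78 to 0.98 for *Dusp6*. Between TKA and naive rats it gave 3 to 113 calls, with 113 without TKA rat 2, 36 without TKA rat 5, and 3 to 7 without naive rats 2 to 6 or TKA rats 1, 4, or 6. There *Zfp36* ran from 1.39 to 1.52 and was called each time, *Socs3* ran from 1.69 to 2.27 and was called in 2 of 12, and *Dusp6* ran from 0.70 to 0.89. Between sham and naive rats *Dusp6* ran from -0.15 to 0.021. In the tests of sex, without 1 rat at a time, the interaction of *Zfp36* ran from -0.45 to 0.31 (TKA and sham) and from -0.68 to 0.081 (sham and naive), and that of *Socs3* from -0.61 to 0.81 (TKA and sham), from -0.70 to 0.72 (TKA and naive), and from -0.47 to 0.17 (sham and naive). The correlation of *Zfp36* and *Socs3* ran from -0.68 to 0.0095 in naive, from -0.72 to 0.055 in sham, and from -0.16 to 0.88 in TKA rats, that of *Zfp36* and *Dusp6* from -0.54 to 0.57 in naive and from -0.11 to 0.69 in sham rats, and that of *Socs3* and *Dusp6* from -0.15 to 0.64 in naive rats.

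With the rat number as a replicate block, 1 transcript was called between TKA and naive rats and *Zfp36* missed the threshold there (1.48, adjusted p = 0.0529 by edgeR's quasi-likelihood test). No clear pairing by number was seen. Correlations of same-numbered rats passed 0.1 in 1, 0, and 1 of 6 pairs in TKA against sham, TKA against naive, and sham against naive rats. In that order, 2, 1, and 0 of 6 rats correlated best with their own number. So few pairs cannot exclude a pairing.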

Other observations

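Genes that regulate NF-kB, most but not all of them known as brakes, showed values in both directions. Of 10 listed genes, 7 were tested between TKA and sham rats, 4 were above 0 and 3 below, 3 of the 4 had an unadjusted p-value under 0.05, and 0 were called by edgeR's quasi-likelihood test. At an unadjusted p-value under 0.05, 5.94% of all transcripts were higher in that comparison. *Nfkbia*, which holds NF-kB in the cytoplasm and is induced by it, went from 25.2 ± 4.12 CPM in sham rats to 52.7 ± 20.4 CPM in TKA rats (SD, n = 6 each), a log2 fold-change of 1.08 (SE 0.22, adjusted p = 0.282). *Nfkbiz*, a nuclear relative that is not a simple brake, was at 0.97 (SE 0.40) between TKA and sham rats and at 1.77 (SE 0.34) between TKA and naive rats. *Tnip2* was at 0.57 (SE 0.18) against sham rats. The ubiquitin-editing enzyme *Tnfaip3* (A20) was at -0.16 (SE 0.28), with 4.16 to 10.49 CPM in TKA rats and 5.63 to 11.2 CPM in sham rats. *Nfkbib* and *Nfkbid* were at -0.16 (SE 0.16) and -0.26 (SE 0.44). The 3 genes below 0 were those named outside the tables sorted by p-value.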
